A study of Capra hircus with 3 samples.

Results

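The miR-15/16 family is a group of miRNAs whose mature 5p arms start with nearly the same bases, and it was followed here through its 6 goat precursors, miR-15a, miR-15b, miR-16a, miR-16b, miR-195 and miR-497. Sequencing tags were given to an arm of a precursor when their first 18 nt were those of a tag listed for it by the authors, and where the list held no such tag, when they shared the start of an unlisted tag with the family seed, named as described below. This gave 10 arms, of which 5 were 5p and 5 were 3p, among 461 arms of the 336 conserved precursors held in a shortened copy of that list. The 5p arms of miR-16a and miR-16b were taken, without a reference sequence, to share their first 18 nt and were counted as 1 arm, miR-16-5p. No sequence of miR-497-3p was held, so that arm was not counted. Skin of adult Shanbei White cashmere goats was taken in anagen, catagen and telogen, the growing, regressing and resting phases of the hair follicle, and small RNA was sequenced from 1 library per stage. Each library was made from the mixed skin of 10 goats, which leaves no value for a single animal and no spread between replicates. The clean reads of the anagen library numbered 15997828, those of catagen 18111912 and those of telogen 27016012, and levels are given as reads per 1000000 clean reads (TPM). A difference between libraries is therefore a difference between 3 pools, and in whole skin fewer cells of a type cannot be told apart from less RNA per cell.

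A miRNA guides the silencing complex to messenger RNAs that pair with its seed, the bases near its 5′ end, and represses them. The miR-15/16 miRNAs share a seed that pairs with messages of cell cycle regulators such as cyclin D1, cyclin E1 and CDK6 and of the survival factor BCL2, and they are known as brakes on entry into the cell cycle and as tumour suppressors. In the hair follicle, anagen is the phase in which matrix cells divide, catagen the phase in which the lower follicle regresses, and telogen the phase of rest.

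The most abundant tag of each 5p arm, over the 3 libraries together, is shown so that the shared seed can be seen, 5′ to 3′, with the seed (bases 2 to 8) in capitals.
miR-15a-5p: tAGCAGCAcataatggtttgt
miR-15b-5p: tAGCAGCAcatcatggtttaca
miR-16-5p: tAGCAGCAcgtaaatattggag
miR-195-5p: tAGCAGCAcagaaatgttggta
miR-497-5p: cAGCAGCAcactgtggtttgt
All 5 held the same seed, and the 8 bases that follow the first base were the same in all of them. Within the first 18 nt, miR-15a-5p and miR-15b-5p differed at 1 base, at position 12 from the 5′ end, while miR-16-5p and miR-497-5p differed at 8. The list of the authors held tags of miR-15a-5p and miR-497-5p. The other 5p arms were found as the only 3 unlisted starts with this seed and at least 100 reads in each library, and were named by how well their most abundant tags paired with the listed 3p arms. For 3 of 4 such 3p arms the named 5p arm was the best partner by construction, since that pairing gave the names. These 3 are therefore no check on the names. The remaining arm, miR-16b-3p, was not used for naming and did not pair best with miR-16-5p. Its predicted duplex energy was -27.2 kcal/mol with the tag named miR-195-5p and -22.8 kcal/mol with that of miR-16-5p. These 3 names are provisional, since no mature reference sequence was used. The tag named miR-195-5p also departs in its later bases from the mature sequence usual in mammals, which is general background and was not checked against a goat reference, so that its locus remains provisional wherever it is named. By the RefSeq annotation of ARS1.2, a goat assembly, MIR15A lies next to MIR16A, MIR15B lies next to MIR16B with both inside SMC4, and MIR195 lies next to MIR497.

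The 5p arms of the family had their lowest levels in the anagen library, although miR-15b-5p and, against telogen, miR-497-5p did not under the median of ratios. Together they reached 797, 1335 and 1454 TPM in anagen, catagen and telogen, a log2 ratio of anagen over catagen of -0.74 (95% interval -0.78 to -0.71) and of anagen over telogen of -0.87 (-0.90 to -0.84). The intervals cover counting error only, since each stage has 1 library, and they treat reads as independent, which PCR copies are not. The sum was led by miR-16-5p, which made up 68.7%, 67.1% and 73.1% of it. As a share of all reads assigned to the conserved arms held, the family 5p arms made up 0.177%, 0.295% and 0.40% in the same order.

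miR-16-5p, the most abundant member, had 8764, 16235 and 28729 reads in the anagen, catagen and telogen libraries, which is 548, 896 and 1063 TPM. It ranked 23, 26 and 22 among the 461 arms held, which leave out other conserved arms with no tag in the shortened list. miR-15b-5p had 1858, 2484 and 3569 reads, or 116, 137 and 132 TPM. Its level over all its tags was thus nearly even over the stages, and in anagen it was the next most abundant member. miR-15a-5p, which differs from it by a single base in this stretch, had 919, 2448 and 3810 reads, or 57.4, 135 and 141 TPM. miR-497-5p had 840, 1976 and 1681 reads, or 52.5, 109 and 62.2 TPM, and was the only 5p arm with a clear peak in catagen. The arm named miR-195-5p was the scarcest, with 370, 1037 and 1494 reads, or 23.1, 57.3 and 55.3 TPM. In catagen the intervals of miR-15a-5p and miR-15b-5p overlapped, and the order of the other 5p arms held beyond counting error there.

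**Figure D1:**
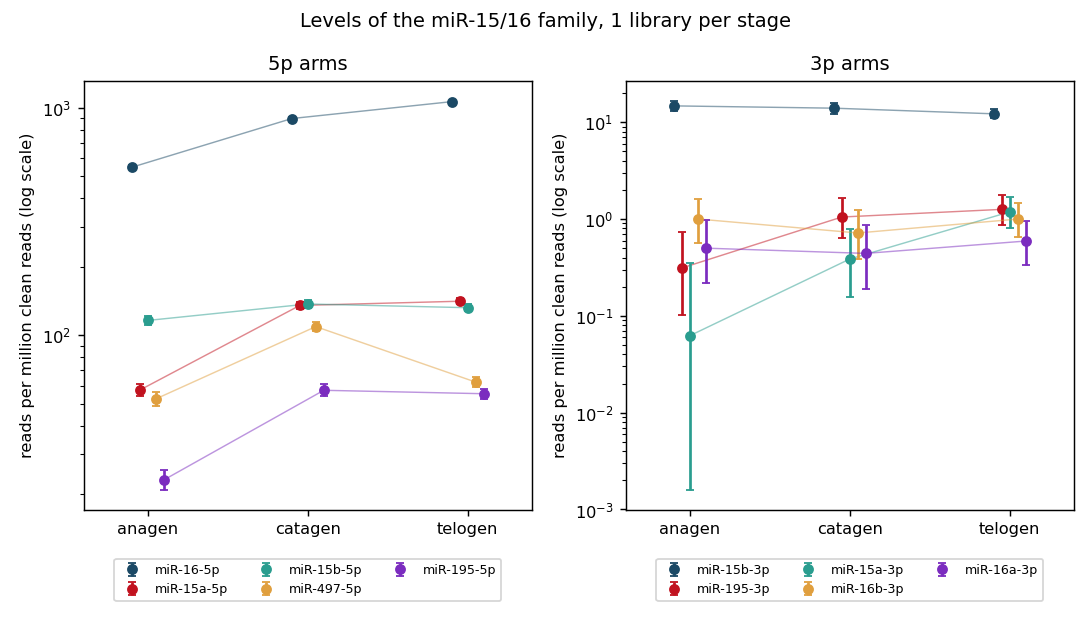
Levels of the 5p arms (left) and 3p arms (right) of the miR-15/16 family in TPM on a log axis, by stage; each point is 1 library and bars are 95% exact Poisson intervals, which cover counting error only. miR-16-5p runs from 548 to 1063 and stands above every other arm, while miR-15b-3p stands alone among the 3p arms at 12.2 to 14.8.

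Each pair of libraries was compared over all arms with the exact test of Audic and Claverie, and an arm was called when its log2 ratio lay beyond 1 in either direction with p under 0.01. In anagen against catagen, 3 of the 8 family arms that passed the minimum of 1 TPM were called, all lower in anagen, where 27.8% of all 291 arms tested were called and 22.7% were called lower and 5.15% higher in anagen. The called arms were miR-15a-5p with a log2 ratio of -1.23 (-1.35 to -1.12; exact test p = 4.86e-120), miR-195-5p with -1.31 (-1.48 to -1.14; exact test p = 1.63e-56) and miR-497-5p with -1.06 (-1.17 to -0.94; exact test p = 4.57e-76). miR-16-5p had a log2 ratio of -0.71 (-0.75 to -0.67) and miR-15b-5p of -0.24 (-0.33 to -0.15), neither past the ratio limit. The median over the 5p arms was -1.06, beside -0.44 over all arms tested. These differences therefore sit on a general shift. Scaling by the median of ratios sets the typical arm to an even level, and it moved the median over arms with at least 100 reads by 0.40. With it, miR-15a-5p, miR-195-5p and miR-497-5p lay at -0.84, -0.91 and -0.66, and miR-15b-5p turned to 0.16. No family arm was then called, beside 18.3% of the 289 arms tested.

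Against telogen, 4 of 9 tested family arms were called, again all lower in anagen, where 24.6% of the 289 arms tested were called with 19.7% lower and 4.84% higher in anagen. miR-15a-5p had a log2 ratio of -1.30 (-1.40 to -1.19; exact test p = 5.53e-155) and miR-195-5p of -1.26 (-1.43 to -1.09; exact test p = 3.94e-59). The other called arms were the sparse 3p arms of the same precursors. miR-16-5p, at -0.96 (-0.99 to -0.92), ended just short of the ratio limit, with an exact test p too small to be told from 0 in computing. miR-497-5p, at -0.24 (-0.37 to -0.12), and miR-15b-5p, at -0.19 (-0.27 to -0.10), were close to even, and both turned above 0 under the median of ratios (0.04 and 0.10). The same scaling brought miR-195-5p to -0.97 and ended its call, while miR-15a-5p stayed called at -1.01. That left 3 of 9 family arms called, beside 22.6% of the 287 arms tested. With tags of 21 nt and longer only, miR-15b-5p stood at -0.88 and miR-497-5p at -0.38. The median over the 5p arms was -0.96, beside -0.32 over all arms tested.

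Catagen and telogen were more alike. Of 8 tested family arms 1 was called, miR-15a-3p, lower in catagen, where 12.8% of 290 arms were called, 5.86% lower and 6.90% higher in catagen. The largest difference among the 5p arms was that of miR-497-5p, higher in catagen with a log2 ratio of 0.81 (0.72 to 0.90; exact test p = 2.18e-64), which stayed under the ratio limit. miR-16-5p was at -0.25 (-0.27 to -0.22), while the intervals of miR-15a-5p (-0.06, -0.14 to 0.01), miR-15b-5p (0.05, -0.02 to 0.13) and miR-195-5p (0.05, -0.07 to 0.17) included 0. The median over the 5p arms was 0.05, beside 0.10 over all arms tested.

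**Figure D2:**
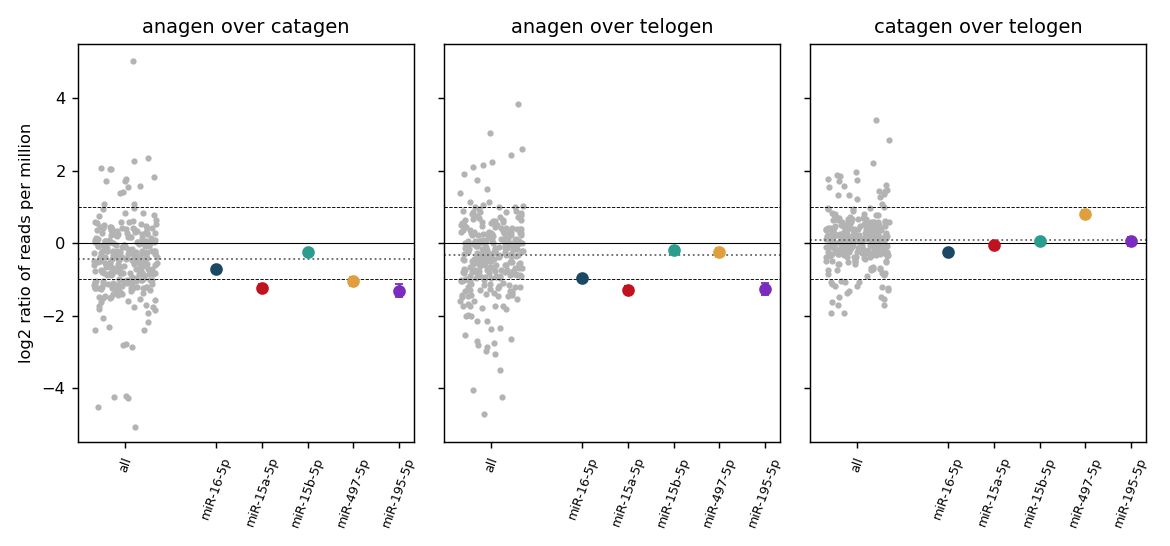
Log2 ratio of TPM in each pair of libraries; grey points are all arms tested, the dotted line is their median, dashed lines mark the ratio limit of 1 in either direction, and coloured points are the 5p arms of the family with 95% exact intervals. miR-15a-5p and miR-195-5p sit below -1 in both comparisons with anagen, miR-15b-5p sits at -0.24 and -0.19, and miR-497-5p is below -1 only against catagen.

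Pairs of members did not keep a fixed proportion. The ratio of miR-497-5p to miR-195-5p reads was 2.27 (2.01 to 2.57) in anagen, 1.91 (1.77 to 2.06) for catagen and 1.13 (1.05 to 1.21) for telogen. Within each library such a ratio does not depend on depth. The interval of the telogen library lay apart from both others, whose own intervals overlapped. miR-15b-5p had 2.02 (1.87 to 2.19) times the reads of miR-15a-5p in anagen, 1.01 (0.96 to 1.07) times at catagen and 0.937 (0.895 to 0.981) times at telogen, so that the excess of miR-15b-5p was seen in the anagen library. It rested largely on tags of 18 to 20 nt, of which miR-15b-5p had 967 reads in anagen and miR-15a-5p 171. With tags of 21 nt and longer only, the ratio was 1.19 (1.08 to 1.31) for anagen, 0.667 (0.625 to 0.712) for catagen and 0.817 (0.777 to 0.859) for telogen.

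The reads counted as miR-16-5p divided by the base at position 21. Neither base there is the usual one of mammalian miR-16, which is general background, and the forms were not checked against a goat reference. The leading tags are shown because the forms differ in how their level varied; the capitals mark position 21 onward.
miR-16-5p, adenine form, 22 nt: tagcagcacgtaaatattggAG
miR-16-5p, guanine form, 22 nt: tagcagcacgtaaatattggGG
miR-16-5p, adenine form, 23 nt: tagcagcacgtaaatattggAGA
miR-16-5p, guanine form, 23 nt: tagcagcacgtaaatattggGGT
Tags with adenine there had 3716, 9221 and 16274 reads in anagen, catagen and telogen, or 232, 509 and 602 TPM. Tags with guanine had 4144, 6462 and 10386 reads, or 259, 357 and 384 TPM. Guanine thus held 52.7% (Wilson interval 51.6 to 53.8) of both forms in anagen, against 41.2% (40.4 to 42.0) in catagen and 39.0% (38.4 to 39.5) for telogen. The adenine form was the less abundant in anagen and the more abundant in the other libraries. Tags with cytosine and tags with thymine at that position each held at most 0.178% of the reads of the arm, and tags too short to reach it held 9.78%, 3.09% and 6.71%.

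In anagen over catagen the log2 ratio was -1.13 (-1.19 to -1.08) in the adenine form and -0.46 (-0.52 to -0.41) for the guanine form, a difference of -0.67 (-0.75 to -0.59). Over telogen the values were -1.37 (-1.43 to -1.32) and -0.57 (-0.62 to -0.52), a difference of -0.81 (-0.88 to -0.73). Catagen and telogen differed less, with -0.24 and -0.11. The difference between the forms is the same under any scaling of the libraries, because both were counted in each. The arms of the genes next to MIR16A and MIR16B stood at -1.23 and -1.30 for miR-15a-5p and at -0.24 and -0.19 for miR-15b-5p, in the same order of comparisons. These values cover all tags, whereas the forms hold only tags of 21 nt and longer. With tags of that length only, miR-15a-5p stood at -1.45 and -1.43 and miR-15b-5p at -0.62 and -0.88. Which precursor gave which form was not tested, as no hairpin sequence was held, and bases added after processing cannot be told apart from encoded ones. The forms also differed in length. Tags of 23 nt and longer held 28.4%, 27.7% and 26.8% of the adenine form and 68.2%, 66.9% and 60.8% of the guanine form. This division was chosen after the values were seen.

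**Figure D3:**
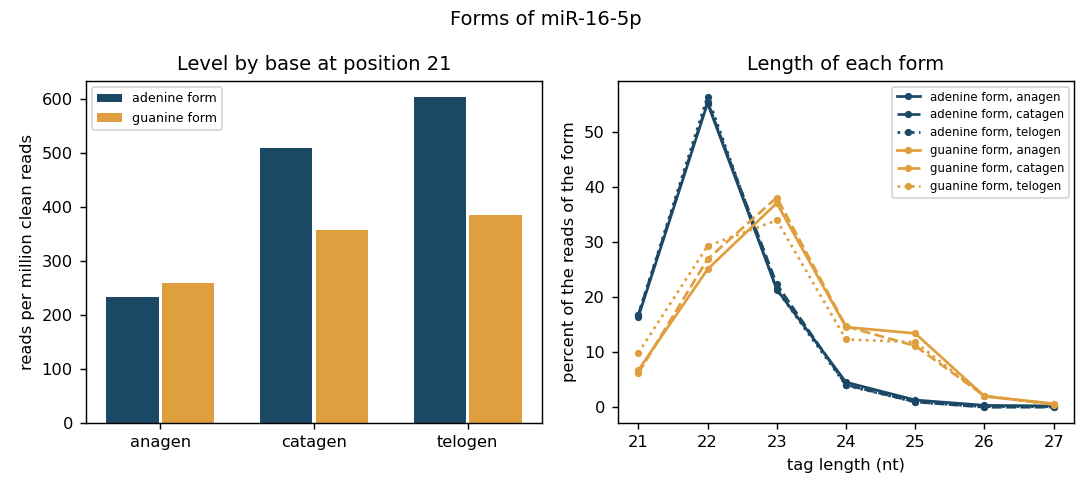
Left, TPM of miR-16-5p tags with adenine or guanine at position 21 in each stage, 1 library per bar; right, the percent of the reads of each form by tag length in nt, with line style for stage. The adenine form goes from 232 to 602 while the guanine form goes from 259 to 384, and the guanine form has more of its reads at 23 nt and above in every library.

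miR-15b-5p differed between libraries in length as well as in amount. Its leading tags are shown with the bases after position 20 in capitals.
miR-15b-5p, 22 nt: tagcagcacatcatggtttaCA
miR-15b-5p, 21 nt: tagcagcacatcatggtttaC
miR-15b-5p, 20 nt: tagcagcacatcatggttta
The 22 nt tag had 582, 956 and 1805 reads in anagen, catagen and telogen, which was 31.3%, 38.5% and 50.6% of the arm. The 20 nt tag had 817, 819 and 698 reads, or 44.0%, 33.0% and 19.6%. The leading length was therefore 20 nt in anagen and 22 nt in the other libraries. In anagen over telogen the 22 nt tag had a log2 ratio of -0.88 (-1.01 to -0.74) and the 20 nt tag of 0.98 (0.84 to 1.13). These differed in opposite directions, and the level over all tags was nearly even. In catagen over telogen the same tags were at -0.34 (-0.45 to -0.23) and 0.81 (0.66 to 0.96).

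Short tags were more frequent in the anagen library as a whole, at 10.6% of all clean reads for 18 to 20 nt, against 7.58% in catagen and 6.29% in telogen. Over the 150 arms with at least 100 reads in every library, the median share of 18 to 20 nt tags was 8.04%, 2.34% and 3.57%, and 132 of the 150 had their highest share in anagen. The shares of miR-15b-5p were 52.0%, 37.8% and 22.3%, which ranked 13, 6 and 17 of 150. Those of miR-15a-5p were 18.6%, 5.43% and 10.9%, of miR-16-5p 9.78%, 3.09% and 6.71%, of miR-195-5p 20.3%, 2.89% and 7.43%, and of miR-497-5p 14.5%, 4.91% and 6.37%. In these 4 arms catagen had the lowest share, an order seen in 97 of the 150 arms. The steady decline of miR-15b-5p from anagen to catagen to telogen was seen in 35 of 150. The source of the short tags was not tested. With tags of 21 nt and longer only, miR-15b-5p stood at -0.62 rather than -0.24 in anagen over catagen, at -0.88 rather than -0.19 in anagen over telogen, and at -0.27 rather than 0.05 in catagen over telogen.

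**Figure D4:**
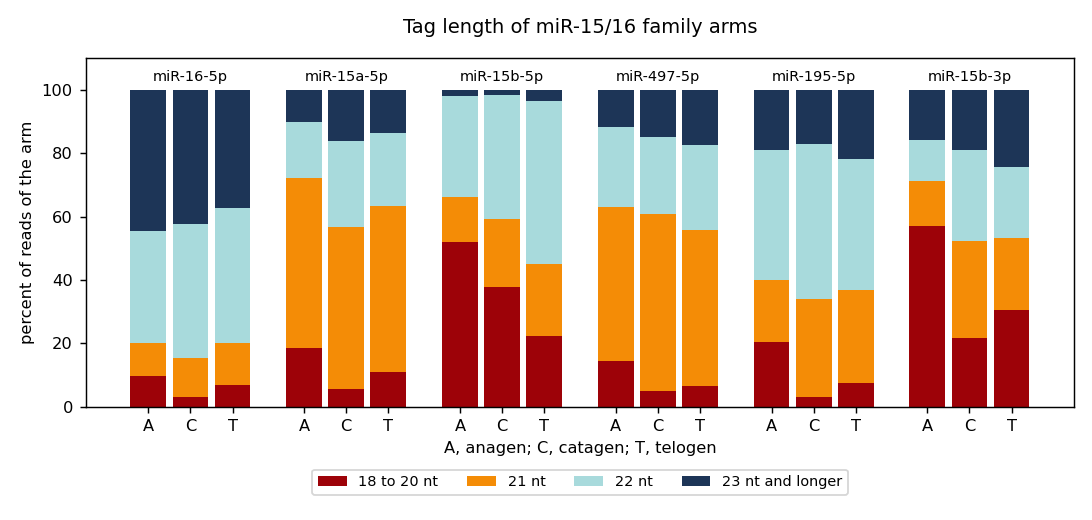
Percent of the reads of each arm by tag length (18 to 20, 21, 22, and 23 nt and longer) in anagen (A), catagen (C) and telogen (T), 1 library per bar. The share of 18 to 20 nt is highest in anagen for every arm shown, and miR-15b-5p, at 52.0%, 37.8% and 22.3%, has the highest share among the 5p arms in each library.

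The 3p arms, which pair with the 5p arms in the duplex and are mostly discarded, were scarce apart from that of miR-15b. Their most abundant tags are given with bases 2 to 8 in capitals.
miR-15a-3p: cAGGCCATattgtgctgcctcaa
miR-15b-3p: cGAATCATtatttgctgctct
miR-16a-3p: tCCAGTATtaactgtgctgctga
miR-16b-3p: aCCAATATtattgtgctgcttt
miR-195-3p: cCAATATTggctgtgctgctc
miR-15b-3p had 236, 253 and 330 reads in anagen, catagen and telogen, or 14.8, 14 and 12.2 TPM. Its log2 ratio was 0.08 (-0.18 to 0.34) over catagen and 0.27 (0.03 to 0.52) over telogen. Like its 5p arm it was nearly level, and it too was rich in short tags, at 57.2%, 21.7% and 30.6% for 18 to 20 nt. With tags of 21 nt and longer only, its ratios became -0.79 and -0.43.

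miR-15a-3p had 1, 7 and 32 reads, so that its log2 ratio of anagen over telogen of -4.24 (-9.59 to -1.66; exact test p = 8.87e-06) rested on a single anagen read. In catagen over telogen it was at -1.62 (-3.04 to -0.41; exact test p = 0.00543), and Benjamini-Hochberg adjustment over all arms (exact test, adjusted p = 0.0114) removed that call. miR-195-3p had 5, 19 and 34 reads, with a log2 ratio over telogen of -2.01 (-3.72 to -0.65; exact test p = 0.00144). Both arms were lower in anagen, as were their 5p arms. miR-16a-3p, with 8, 8 and 16 reads, and miR-16b-3p, with 16, 13 and 27, showed no difference detectable at this depth, where 3 reads equal 0.188, 0.166 and 0.111 TPM in the 3 libraries.

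The balance between arms differed widely between precursors. miR-15b had 7.87 (6.87 to 9.05), 9.82 (8.62 to 11.2) and 10.8 (9.66 to 12.1) 5p reads for each 3p read in anagen, catagen and telogen. miR-195 had 74.0 (31.4 to 229), 54.6 (34.8 to 91.0) and 43.9 (31.3 to 63.7). For miR-15a the ratio was 919 (165 to 36338) in anagen, on a single 3p read, 350 (169 to 871) in catagen and 119 (84.2 to 174) in telogen, and for miR-16, with both 3p arms added, it was 365, 773 and 668. In each library the intervals placed miR-15b below the others, so that its 3p arm had the most reads relative to the 5p arm.

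The 5′ end, which sets the seed, was nearly fixed. Tags that started 1 base later held at most 0.295% of the reads of miR-15a-5p, miR-15b-5p, miR-16-5p and miR-195-5p in each library. miR-497-5p was the exception, with 7.26% (Wilson interval 5.69 to 9.22) in anagen, 5.92% (4.96 to 7.05) at catagen and 5.77% (4.75 to 6.99) at telogen. The usual start and the later one are shown with their own bases 2 to 8 in capitals.
miR-497-5p, usual start: cAGCAGCAcactgtggtttgt
miR-497-5p, 1 base later: aGCAGCACactgtggtttgtac
The later start moves the seed by 1 base, and its share did not differ between the libraries beyond counting error, as the intervals overlapped.

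At the 3′ end, part of the reads of the arms with a listed sequence departed from it. For miR-15a-5p the share was 11.9% (9.93 to 14.1), 17.3% (15.9 to 18.9) and 15.0% (13.9 to 16.2) in anagen, catagen and telogen, and for miR-497-5p 15.6%, 17.2% and 19.5%. A departure at the last base alone covers a base replaced and a base added beyond a listed tag, which were not separated. It was mostly to adenine in both arms, at 7.07%, 9.76% and 9.40% for miR-15a-5p and 8.57%, 10.02% and 11.3% for miR-497-5p. In miR-15b-3p the last base was more often thymine, at 9.32%, 11.9% and 18.8%. Departures at the last base alone to cytosine, and those to guanine, each held at most 0.506% of the reads of any of these 3 arms in any library. In miR-15a-5p they numbered 2 and 2 of 2448 reads in catagen, beside 239 to adenine and 125 to thymine. The source of the departing bases was not tested.

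Outside the 6 precursors, 2 arms shared bases 2 to 7 with the family, and their leading tags are shown for the comparison of seeds (bases 2 to 8 in capitals).
miR-424: cAGCAGCAattcatgttttga
miR-503: tAGCAGCGggaacagtactgcag
miR-424, which has the family seed in full, had 495, 1231 and 1556 reads in anagen, catagen and telogen, or 30.9, 68.0 and 57.6 TPM. It was lower in anagen, with log2 ratios of -1.14 (-1.29 to -0.98), past the ratio limit, over catagen and of -0.90 (-1.05 to -0.75) over telogen. miR-503, which differs from the seed at base 8, went the other way, with 3134, 2677 and 2959 reads, or 196, 148 and 110 TPM, and log2 ratios of 0.41 (0.33 to 0.48) and 0.84 (0.77 to 0.91). Neither of these reached the ratio limit. Within this broader seed group the level in anagen was therefore low for some arms and high for miR-503.

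Among the 150 arms with at least 100 reads in every library, likeness of pattern was measured as the distance between log2 ratios of anagen over catagen and of catagen over telogen, which are 2 values from 3 libraries and carry no test. The arms nearest to miR-15a-5p were miR-652 (distance 0.04), miR-375 (0.11) and miR-195-5p (0.13). For miR-195-5p they were miR-15a-5p (0.13), miR-379 (0.16) and miR-365-1 (0.17). These members were thus within the nearest arms of each other. miR-16-5p lay nearest to miR-106b (0.12), miR-34a (0.13) and miR-10a (0.16). Nearest to miR-15b-5p were miR-34c (0.06), miR-744 (0.06) and the arm held for miR-200b (0.07). The nearest to miR-497-5p were miR-486 (0.17), miR-3432-2 (0.21) and miR-22 (0.23). For miR-15b-3p they were miR-24-2 (0.16), miR-1468 (0.16) and the 3p arm of miR-106b (0.18).

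Markers of other tissues moved between the libraries. The red blood cell markers miR-451, miR-144 and miR-486 summed to 1301, 2122 and 876 TPM in anagen, catagen and telogen, but they did not move alike. In the same order miR-451 stood at 863, 1266 and 431 TPM, miR-144 at 104, 76.4 and 7.18, and miR-486 at 335, 779 and 438. Both miR-15a and miR-16 are themselves known in red blood cells. The skeletal muscle markers (miR-1, miR-206 and the shared arm of miR-133a and miR-133b) summed to 4116, 78781 and 21402 TPM, and TPM is a share of a fixed total. The arms held for skin epithelium markers summed to 1024, 1831 and 1903 TPM. Of these, miR-205 stood at 990, 1790 and 1863 TPM and miR-200b at 33.3, 41.0 and 40.1, and miR-203 was not held. The dermal markers summed to 12534, 22727 and 18012 TPM, nearly all of it miR-199a, counted with miR-199c, at 12534, 22725 and 18010. The other, miR-214, had only 10, 27 and 44 reads, or 0.625, 1.49 and 1.63 TPM. Each marker was counted by the arm held, and whether that is its main arm was not checked. Of the immune markers, miR-142 stood at 74.3, 78.0 and 90.6 TPM and miR-223 at 10.2, 15.5 and 58.8, and miR-150 was not held. The part of these cell types in the levels of the family was not tested. Reads assigned to the conserved arms held made up 45.1%, 45.2% and 36.3% of the clean reads. Scaling by them moved the median over arms with at least 100 reads by -0.31 in anagen over telogen and -0.32 in catagen over telogen. It carried miR-16-5p past the ratio limit in anagen over telogen (-1.27).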

How the data were processed

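Small RNA of goat skin was sequenced in 1 library for each of 3 stages. The authors removed low-quality, adapter and poly(A) reads and reads under 18 nt and collapsed the rest, and the deposited files give each clean tag with its count of reads, not normalised. No aligner or build enters these counts. The sums equalled the filtering record, and its counts were used for this check only. The tag list of the authors was taken from a copy that is shortened (2697 distinct tags), for sequences only, and its listed tags were joined into arms where they shared 14 nt. The members and lists were chosen with earlier results of these data known.

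TPM is reads per 1000000 clean reads. Arms that reached 1 TPM in neither library of a pair were dropped, 0 was set to 0.01, and the two-sided Audic-Claverie exact test was computed on the reads (Python 3.11.15, scipy 1.17.1). Calls needed p under 0.01 and a log2 ratio beyond 1 in either direction. With 1 library per stage no model with replicate spread could be fitted, and the tests compare libraries. Intervals are 95% (Clopper-Pearson for ratios, Poisson for levels, Wilson for shares), and depth sets their width. Duplex energies came from ViennaRNA 2.7.2. Counts of 461 arms were also simulated with Poisson counting error only. In anagen against catagen 40 of 40 well-read arms changed by 2 on the log2 scale were called, as was 1 of 153 unchanged arms. The simulated counts hold no spread between pools, so they give no error rate for the stages.

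Named arms were the arms of the members, other arms that share bases 2 to 7, the 3 nearest by pattern and the markers. miR-103 and miR-107 did not share these bases at the same position. Alternatives, 12 in all, covered scaling, tag choice, minimum, limits, and the edgeR 4.0.16 exact test (R 4.3.3) with an assumed coefficient of variation of 0.1 or 0.4.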

Additional observations from a re-analysis of the deposited data

How the results depend on the processing

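Numbers of family arms called were 3, 4 and 1 in anagen against catagen, anagen against telogen and catagen against telogen, beside 27.8%, 24.6% and 12.8% of all arms. The size factors from the median of ratios (0.696, 1.04 and 1.43) raise each log2 ratio of anagen over catagen by 0.40. They left 0 of 7 arms called in that comparison, beside 18.3% of all arms. In anagen against telogen they left 3, beside 22.6% of all arms, and miR-195-5p (-0.97) lost its call. The most abundant tag only gave 5 of 6 tested family arms in anagen against catagen, beside 39.7% of all arms. In catagen against telogen it gave 0 of 6, beside 43 of all 226 arms tested. A minimum of 100 reads gave 2 and 0 in the comparisons with telogen, since the sparse 3p arms left the test. The shares over all arms were 13.8% and 8.28%. Without a limit on the ratio the numbers were 5, 7 and 3, beside 61.5%, 63.3% and 50.0% of all arms. Benjamini-Hochberg adjustment gave 0 in catagen against telogen, beside 12.4% of all arms. The edgeR exact test with an assumed coefficient of variation of 0.4 gave 0, 1 and 0, beside 2.75%, 5.19% and 0.690% of all arms. In the other 21 combinations of alternative and comparison the number stayed within 1.5 times.

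Scaling by assigned reads turned miR-15b-3p (-0.04) and miR-16b-3p (-0.31) in anagen over telogen, and miR-15b-5p (-0.26), miR-195-5p (-0.27) and miR-15b-3p (-0.12) in catagen over telogen. The median of ratios turned miR-15b-5p (0.16 over catagen, 0.10 over telogen) and miR-497-5p (0.04 over telogen) in anagen, and miR-15b-5p (-0.06) and miR-195-5p (-0.06) in catagen over telogen. Tags of 21 nt and longer turned miR-15b-3p (-0.79 and -0.43 in anagen) and, in catagen over telogen, miR-15a-5p (0.02) and miR-15b-5p (-0.27), and the most abundant tag only turned miR-15b-3p (-1.14 and -0.45) and miR-15b-5p (-0.34). Distinct tags in place of reads, a measure that loses the depth of a tag, turned 12 of 30 ratios. Of the arms called by reads these were miR-195-5p in anagen over telogen (0.14) and miR-15a-3p in catagen over telogen (0.07). Among the others were miR-16-5p, the leading member, in all 3 comparisons (0.08 in anagen over catagen, 0.27 over telogen, 0.19 in catagen over telogen), miR-497-5p in anagen over telogen (0.28) and miR-15a-5p in catagen over telogen (0.23). Beyond what the scalings do by construction, the cause was not tested.

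No paired analysis was possible because each stage has 1 library. The alternative of tags that are an exact part of the hairpin was not run, as no hairpin sequence was held. At 1 to 34 reads the arms miR-15a-3p, miR-16a-3p, miR-16b-3p and miR-195-3p are limited by depth.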
